A study of Mus musculus with 4 samples.

Results

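Short-wave cones were cones of the mouse retina in which most opsin UMIs (unique molecular identifiers, each one RNA molecule counted) came from Opn1sw, the short-wave opsin gene. A cell was taken as a cone when at least 4 of 8 cone genes (Arr3, Gnat2, Pde6c, Pde6h, Gngt2, Cngb3, Gnb3 and Kcne2) had a UMI and the rod genes Nr2e3, Pde6a and Cnga1 summed to under 20 per 10000 UMIs. Cones whose share of Opn1mw, the medium-wave opsin gene, was under 0.5 of all opsin UMIs were kept. The rule took 779 of 26543 cells, or 2.93%, over the 4 libraries. It called 2098 cells cones in all, of which 607 were medium-wave cones and 712 had no opsin UMI and fell in neither class. The cells were thus chosen by the measured values of these 13 genes, so their levels are given as a description without a test.

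Every mouse lacked Abca4 and Rdh8 (Abca4-/-Rdh8-/- on C57BL/6J), a transporter and a dehydrogenase that help clear all-trans-retinal after light, and was 6 weeks old. Each group was 1 library of 4 pooled retinae from 2 mice, loaded at 15000 cells. The rolipram group was injected with rolipram, which inhibits phosphodiesterase 4, at 2 mg/kg, and the BC11-38 group with 2 mg/kg of BC11-38, an inhibitor of phosphodiesterase 11. Both were given in DMSO 30 min before white light of 10000 lux for 30 min. The bleached vehicle group received DMSO and the same light, and these 3 groups were collected 1 day after light. The unbleached vehicle group received DMSO without bleaching. Dark adaptation over 24 h and 1% tropicamide, which dilates the pupil, preceded the light, and neither is recorded for unbleached mice. No wild-type retina is among the groups, so nothing below separates the effect of the double knockout. Whether mice of one library share a litter or sex is not given in the labels.

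Mouse cones carry short-wave opsin, medium-wave opsin or both, and the balance follows a gradient from ventral to dorsal retina. Thyroid hormone receptor beta, encoded by Thrb, is needed in mice for medium-wave opsin and holds back the short-wave opsin. The ventral homeobox factor Vax2 and the dorsal nuclear receptor Nr2f2 mark the axis along which cones differ. All cones share one light response cascade of transducin, phosphodiesterase 6, cyclic nucleotide-gated channels and cone arrestin.

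The promoters of both opsin genes and of Ccdc136, the gene beside Opn1sw whose level set short-wave cones apart most reliably, are shown from 250 bases before to 50 after the RefSeq start (GRCm38.p6). Capitals mark AGGTCA on either strand, the half-site bound by nuclear receptors such as those encoded by Thrb, Rxrg and Nr2f2. The Opn1sw window is chr6:29380464-29380763 on the minus strand, the Opn1mw window chrX:74127216-74127515 on the plus strand, and the Ccdc136 window chr6:29396325-29396624 on the plus strand, the first of 4 windows listed for that gene.
Opn1sw: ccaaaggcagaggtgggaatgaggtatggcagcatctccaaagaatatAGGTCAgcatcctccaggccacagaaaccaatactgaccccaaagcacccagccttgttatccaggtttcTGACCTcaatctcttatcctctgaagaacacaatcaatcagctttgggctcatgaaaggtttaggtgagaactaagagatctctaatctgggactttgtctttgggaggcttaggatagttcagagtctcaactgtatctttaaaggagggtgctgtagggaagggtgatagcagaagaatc
Opn1mw: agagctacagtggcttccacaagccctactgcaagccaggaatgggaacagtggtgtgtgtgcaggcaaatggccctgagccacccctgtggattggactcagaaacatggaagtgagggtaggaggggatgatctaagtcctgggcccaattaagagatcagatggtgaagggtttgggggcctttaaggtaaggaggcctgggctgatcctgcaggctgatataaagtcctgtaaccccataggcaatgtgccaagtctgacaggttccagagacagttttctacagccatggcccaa
Ccdc136: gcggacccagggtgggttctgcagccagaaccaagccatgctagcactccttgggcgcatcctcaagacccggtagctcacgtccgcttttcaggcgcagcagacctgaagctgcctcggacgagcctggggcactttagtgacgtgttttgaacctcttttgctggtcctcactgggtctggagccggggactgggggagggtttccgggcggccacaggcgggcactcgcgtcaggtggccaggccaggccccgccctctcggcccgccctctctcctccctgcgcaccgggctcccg

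The Opn1sw window held 2 AGGTCA matches, starting 202 and 132 bases before the start. The Opn1mw and Ccdc136 windows held 0. Among 32817 RefSeq windows of this length, 16.3% held the half-site. TAATCC, the core bound by the photoreceptor factor CRX, was searched on both strands too and was in 0 of the 3 windows and in 7.06% of all windows. A match describes letters in the window and is not a shown binding site. Opn1sw and Ccdc136 lie on opposite strands of chromosome 6 with 7.841 kb between their GENCODE bounds. Those of Opn1sw are chr6:29376671-29388468, so the RefSeq start used for its window lies inside them and farther from Ccdc136.

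Short-wave cones numbered 246 of 7894 cells in the rolipram library, 256 of 6143 in BC11-38, 127 of 6809 in bleached vehicle and 150 of 5697 in unbleached vehicle. As a share of cones with an opsin UMI they made up 56.8% (exact 95% interval 52.0 to 61.5), 64.5% (59.6 to 69.2), 45.7% (39.7 to 51.7) and 54.0% (47.9 to 59.9). BC11-38 was highest and bleached vehicle lowest, and intervals here and below cover counting error only, with 1 library per group. Among cones with at least 6 cone genes seen, the shares were 56.7%, 64.9%, 49.6% and 53.3% in the same order. Among cones with at least 10 opsin UMIs they were 57.8%, 66.2%, 50.3% and 56.3%. Bleached vehicle thus stayed lowest but lay nearer to unbleached vehicle in both settings. Cones without an opsin UMI were 165 of 598 in rolipram, 175 of 572 in BC11-38, 226 of 504 in bleached vehicle and 146 of 424 in unbleached vehicle, and were most common in bleached vehicle. Of these 712 cells, 686 had UMIs of 4 or 5 cone genes only, 164, 175, 207 and 140 in the same order of libraries. Short-wave members with so few cone genes carried high levels of bipolar markers and, in bleached vehicle, of Müller glia markers, as given below.

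Median depth of short-wave cones was 4509, 5946.5, 6435 and 7582.5 UMIs in the rolipram, BC11-38, bleached vehicle and unbleached vehicle libraries, the order used wherever 4 values follow each other. Summed over cells they gave 1107582, 1465366, 874309 and 1107494 UMIs. No short-wave cone shared a barcode with another, and 4 were among 184 cells whose barcode also occurs in another library. Xist, expressed from the inactive X of female cells, had a UMI in 52.4%, 52.0%, 0% and 56.7% of short-wave cones, and Y-linked genes in 39.4%, 39.1%, 70.1% and 33.3%. The bleached vehicle library thus stood apart in sex-linked RNA from the other 3. Each comparison with it was repeated in cells with Y-linked and without Xist UMIs.

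Levels are given as UMI counts-per-million (CPM), a gene's UMIs scaled to the UMIs summed over all genes and all cells of a class in a library. Opn1sw, which chose the cells, had 14441, 14135, 8372 and 12735 CPM in short-wave cones, 773, 721, 209.8 and 379 in medium-wave cones and 15.6, 21.5, 5.05 and 7.46 in non-cone cells. Opn1mw had 2514, 2755, 1002 and 2184 in short-wave cones against 7478, 7318, 3034 and 5430 in medium-wave cones and 7.86, 10.9, 2.79 and 5.23 in non-cone cells. Both opsin levels were lowest in the bleached vehicle library in every class. Relative to unbleached vehicle, Opn1sw in short-wave cones of bleached vehicle stood at a ratio of 0.66 and Opn1mw at 0.46. Relative to bleached vehicle, Opn1sw stood at 1.72 in rolipram and 1.69 in BC11-38, and Opn1mw at 2.51 and 2.75. Non-cone cells, which should lack both, were lowest in bleached vehicle too.

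Most members carried both opsins. An Opn1mw UMI was seen in 79.7%, 79.3%, 56.7% and 78.7% of short-wave cones, 589 of 779 in all, while it was seen in 2.89%, 4.6%, 1.74% and 3.05% of non-cone cells at median depths of 3277, 3648, 3853 and 4078 UMIs. After every cell was thinned to 2000 UMIs the shares in short-wave cones were 77.2%, 77.3%, 47.9% and 70.9%, with 14, 14, 10 and 9 shallower cells left out. The bleached vehicle library stayed lowest at equal depth. The median Opn1mw share of a cell's opsin UMIs was 12.8%, 13.4%, 4.69% and 10.6%.

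Cones were found at shares on both sides of the cutoff, and few lay near it. Of the 779 cells, 347 had an Opn1mw share under 0.1, 210 from 0.1 to 0.2, 186 from 0.2 to 0.4 and 36 from 0.4 to 0.5. Just outside the cutoff 30 cones lay from 0.5 to 0.6 and 102 from 0.6 to 0.9, while 475 lay at 0.9 or above.

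**Figure D1:**
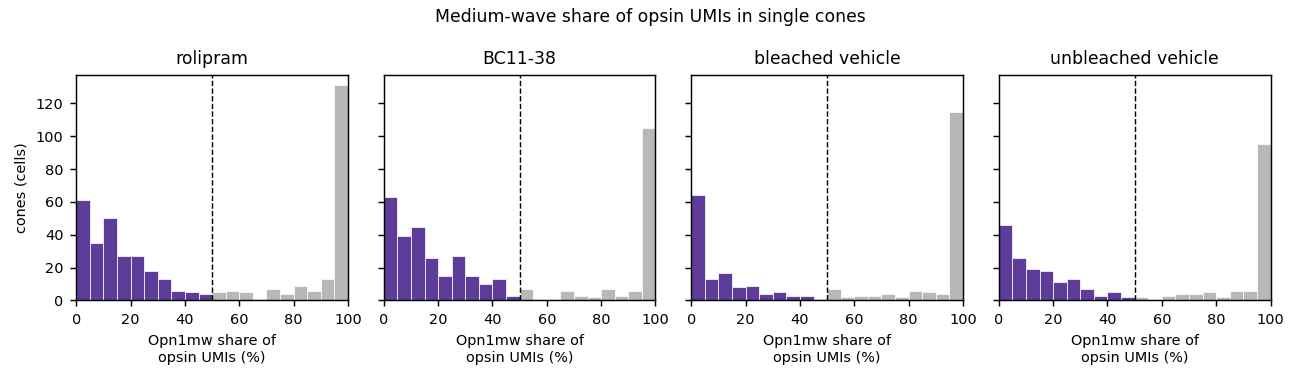
Number of cones (vertical axis) by the Opn1mw share of a cell's opsin UMIs in percent (horizontal axis, bins of 5), with 1 panel per library; purple bars are short-wave cones, grey bars medium-wave cones and the dashed line the cutoff at 50%. The tallest bars stand at both ends, and shares between them are more common on the short-wave side.

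Depth of evidence differed between members. The median member had 81, 103, 56 and 121 opsin UMIs, but 93 of 779 had under 10. All 8 cone genes were seen in 509 cells, 7 in 172, 6 in 37, 5 in 19 and 4 in 42. The 61 cells with 4 or 5 cone genes had a median of 1 opsin UMI.

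The label was checked against markers of other retinal cells. Cone markers of the rule were high: Arr3, cone arrestin, had 2738, 3796, 2533 and 3498 CPM, Gnat2, the cone transducin subunit, 2540, 2747, 1950 and 2340, and Pde6h, the inhibitory subunit of the cone phosphodiesterase, 12029, 15365, 12052 and 14226. The 14 bipolar markers summed to 1715, 1888, 1520 and 1467 CPM in short-wave cones, 1361, 1929, 826 and 871 in medium-wave cones and 5407, 5679, 4378 and 3366 in non-cone cells. In the 61 members with 4 or 5 cone genes they summed to 9425, 13423, 6502 and 9319, above non-cone cells, and in the other 718 members to 819, 1122, 816 and 774. These 61 cells therefore went against the cone label, and results that rest on them are given without them where they change. Medium-wave cones were taken by the same rule and hold such cells too. In bleached vehicle 238 of 278 cones with an opsin UMI had at least 6 cone genes, and 118 of 127 short-wave cones did. Medium-wave levels and ratios are given with those cells left in.

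The 14 Müller glia markers summed to 625, 717, 2114 and 500.2 CPM in short-wave cones and to 395, 737, 654 and 428 without the 61 cells. Within the 61 cells they summed to 2601, 416, 12441 and 1314, against 10912, 8273, 11197 and 8422 in non-cone cells. Only the bleached vehicle sum, from 9 of the 61 cells, was above non-cone cells. Medium-wave cones had 497, 424, 2988 and 430, with bleached vehicle again the highest. The 8 horizontal cell markers summed to 127, 117, 706 and 114, and the bleached vehicle value stayed high, at 772, without the 61 cells. A single bleached vehicle cell held 99% of the library's short-wave Calb1 UMIs. The 9 ganglion cell markers summed to 20.8, 38.2, 49.2 and 311.5 in short-wave cones, with unbleached vehicle far above the rest, and to 17.5, 21.3, 23.1 and 25.6 in medium-wave cones. The unbleached vehicle sum was 330.2 without the 61 cells. The 12 amacrine markers summed to 329, 125, 127 and 373. The 13 microglia markers summed to between 12.6 and 28.6, with 7, 9, 9 and 11 of them at 0. The 14 rod markers, several of them shared by cones, summed to 15825, 16835, 14596 and 17131. That was above non-cone cells in every library, at 10163, 10841, 5558 and 8448. Medium-wave cones had 14938, 15447, 10145 and 14877.

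**Figure D2:**
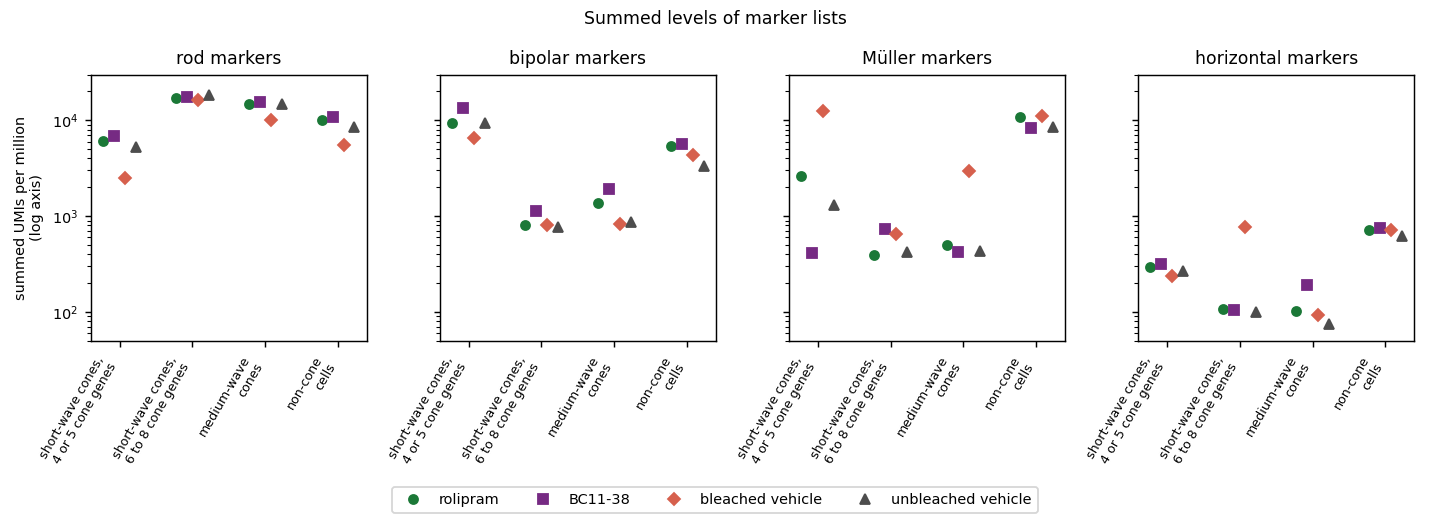
Summed CPM (vertical log axis) of rod, bipolar, Müller and horizontal cell markers in short-wave cones with 4 or 5 and with 6 to 8 cone genes, in medium-wave cones and in non-cone cells, with 1 symbol per library. Bipolar sums are highest in short-wave cones with 4 or 5 cone genes, and the bleached vehicle point stands highest among horizontal markers of the 6 to 8 gene cells.

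Short-wave cones were set against medium-wave cones of the same libraries, with UMIs summed per class and library and limma fitted to log2(CPM + 10) with the library as a block, over 8095 genes outside the rule. With 4 libraries as the units, 67 genes were higher in short-wave cones (0.828% of those tested) and 53 were lower (0.655%) at an adjusted p under 0.05. All 120 had the same sign in the 4 libraries, which a fit to differences within libraries favours. For 75 of them the values of both classes did not overlap, and neither count was made over all genes tested. Genes picked for large differences in these sums tend to separate, so non-overlap below describes the values and adds no support. The median difference over all genes was -0.01 on the log2 scale. The balance of directions depended on the fit, with 78 higher and 107 lower under voom precision weights. Without the library block 18 were higher and 9 lower, and without the unbleached vehicle library 27 and 16. Without rolipram 37 were higher and 23 lower, and without BC11-38 142 and 88. With at least 6 cone genes required in both classes 81 were higher and 71 lower. Of the 67 higher genes, 36 were also above non-cone cells in every library.

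Ccdc136, which encodes a coiled-coil protein known for acrosome formation in mouse sperm, differed most reliably. It had 1463, 1199, 1025 and 1126 CPM in short-wave cones, against 270.2, 220.4, 171 and 182 in medium-wave cones. Every short-wave value was more than 3 times the highest medium-wave value. The means were 1203 ± 187 and 211 ± 44.9 (SD, n = 4 libraries), a log2 difference of 2.47 (SE 0.07, limma adjusted p 4.0e-11). A Ccdc136 UMI was seen in 95.1%, 93.0%, 95.3% and 93.3% of short-wave cones and in 44.9%, 47.5%, 46.4% and 47.7% of medium-wave cones. The gene lies at chr6:29396309-29426994 on the plus strand (GRCm38.p6). Whether reads of Opn1sw and Ccdc136 were counted by strand is not given in the sources used here.

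En2, the engrailed homeobox factor known for patterning the midbrain and cerebellum, had 61.4, 43.0, 54.9 and 46.0 CPM in short-wave cones, against 0, 0, 4.81 and 3.08 in medium-wave cones. The log2 difference, which the added 10 CPM holds down, was 2.37 (SE 0.17, limma adjusted p 3.1e-06). En2 was close to absent from all other cells, at 0 to 0.156 CPM in non-cone cells, and had a UMI in 21.1%, 18.8%, 27.6% and 20% of short-wave cones. It lies at chr5:28165694-28172166 on the plus strand.

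Syndig1l, which encodes a relative of the AMPA receptor-associated protein SynDIG1, had 168, 126, 165 and 141 CPM in short-wave cones, against 21.1, 7.11, 55.8 and 37.9 in medium-wave cones (log2 difference 2.14, SE 0.20, limma adjusted p 3.2e-05). Cacna1h, the pore subunit of the T-type calcium channel Cav3.2, had 74.0, 63.5, 72.1 and 74.0 against 21.1, 17.8, 6.74 and 15.4 (1.72, SE 0.16, limma adjusted p 3.2e-05). For both genes every short-wave value was above every medium-wave value. Dnaic1, an intermediate chain of axonemal dynein, had 29.8, 53.9, 34.3 and 54.2 against 8.19, 5.93, 0.962 and 5.13 (1.81, SE 0.19, limma adjusted p 6.9e-05), and Wscd2 had 52.4, 36.9, 30.9 and 40.6 against 5.85, 5.93, 1.92 and 2.05 (1.85, SE 0.16, limma adjusted p 2.4e-05). Elfn2, a synaptic adhesion protein that binds metabotropic glutamate receptors, was the only one of 22 ribbon synapse genes tested to differ, with 59.6, 33.4, 33.2 and 42.4 against 9.36, 14.2, 3.85 and 11.3 (1.41, SE 0.18, limma adjusted p 5.2e-04).

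The other genes among the 12 with the largest differences were 5430419D17Rik (log2 difference 1.79), Srcin1, an inhibitor of SRC kinase signalling (1.30), Gm10419 (1.29), Scgn, the calcium-binding protein secretagogin (1.29), and Rtl8a (1.28). All 5 had non-overlapping classes. Scgn was higher in non-cone cells, at 119.5 to 246 CPM, than in short-wave cones, at 76.7 to 117, and 3 of 14 alternative fits did not call it. Rtl8a belongs to a family of near-identical copies, and how shared reads were split is not given in the sources used here.

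Among genes lower in short-wave cones, Nr2f2, the dorsal nuclear receptor COUP-TFII, had 8.13, 18.4, 1.14 and 29.8 CPM, against 94.7, 80.6, 76.0 and 71.8 in medium-wave cones (log2 difference -2.05, SE 0.24, limma adjusted p 2.3e-04). Gm44532, a non-coding RNA gene whose end lies 54.18 kb from Nr2f2, had 7.22, 7.51, 2.29 and 2.71 against 134.5, 116, 26.0 and 62.6 (-2.50, SE 0.21, limma adjusted p 1.3e-05). All short-wave values of both genes lay below all medium-wave values. Nr2f2 lies at chr7:70351944-70366735 and Gm44532 at chr7:70420915-70453222, both on the minus strand.

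Smug1, a uracil-DNA glycosylase of base excision repair, had 70.4, 72.3, 26.3 and 55.1 CPM in short-wave cones, against 323, 293, 138 and 198 in medium-wave cones (log2 difference -1.91, SE 0.10, limma adjusted p 4.8e-08). Medium-wave cones were above non-cone cells, at 29.8 to 40.3, in every library. Samd7, a photoreceptor protein that works with Polycomb repressors, had 41.5, 40.9, 30.9 and 36.1 against 83, 149, 75.1 and 108 (-1.23, SE 0.13, limma adjusted p 1.4e-04). Chrnb4, a nicotinic acetylcholine receptor subunit, had 9.03, 11.6, 20.6 and 8.13 against 38.6, 30.8, 43.3 and 32.8 (-1.08, SE 0.16, limma adjusted p 0.0020) and under 1 CPM in non-cone cells. The classes did not overlap for any of these 3 genes.

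The other named lower genes were D430019H16Rik (log2 difference -1.24), Cit, a kinase of cell division (-1.18), Osbpl3, an oxysterol-binding protein (-1.17), A930001M01Rik (-1.15), Itga4, the integrin alpha 4 chain (-1.11), Kpna2, an importin of nuclear transport (-1.05), and Slc35g1 (-0.96). Slc35g1 alone among the 24 named genes had overlapping classes, with 28.9, 23.9, 48.0 and 28.0 CPM in short-wave cones against 55.0, 45.0, 100.1 and 94.3 in medium-wave cones. The 24 were picked for the largest differences in these same values, which favours separation, and overlap was not counted over all genes tested.

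**Figure D3:**
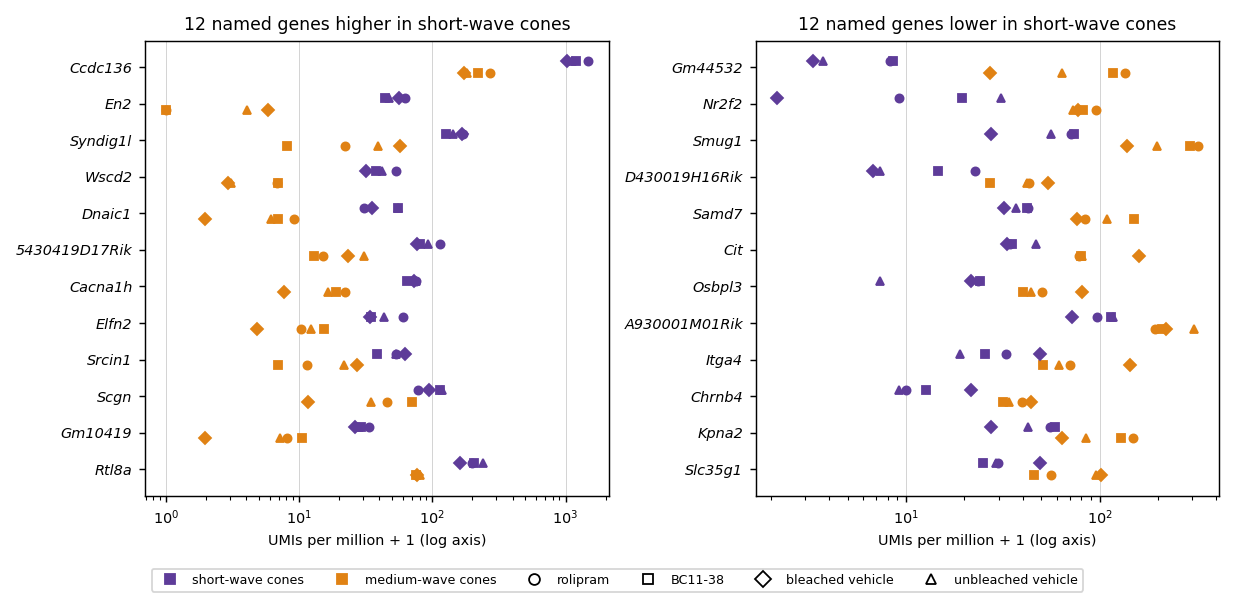
CPM in short-wave cones and in medium-wave cones plus 1 (horizontal log axis) for the 12 named genes higher (left) and the 12 lower (right) in short-wave cones; purple marks short-wave and orange medium-wave cones, with 1 symbol per library. For Ccdc136, En2, Nr2f2 and Smug1 the points of both classes stand apart in all 4 libraries.

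Of 24 tested genes known for opsin choice and cone fate, 3 were higher and 3 lower in short-wave cones, where 0.828% and 0.655% of all genes were. The median log2 difference was 0.04, against -0.01 over all genes. Vax2, the ventral homeobox factor, had 39.7, 19.8, 30.9 and 27.1 CPM, against 7.02, 7.11, 9.62 and 6.15 in medium-wave cones (log2 difference 1.15, SE 0.17, limma adjusted p 0.0022). All short-wave values were above all medium-wave values, though non-cone cells had 35.0 to 46.5. Its antisense neighbour Vax2os, which overlaps it by 0.937 kb and may share reads with it, differed by 0.98. The list's other called genes were Rxrg, a retinoid receptor partner of Thrb (0.58, limma adjusted p 0.040), Otx2 (0.52) and, on the lower side beside Nr2f2 and Samd7, Neurod1 (-0.40). Rxrg and Otx2 were each called in 9 of 15 alternative fits.

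Thrb itself had 534, 474, 234.5 and 432.5 CPM in short-wave cones, against 665, 648, 322 and 439.9 in medium-wave cones. The classes overlapped and the difference of -0.31 (SE 0.08) was not called, at a limma adjusted p of 0.10. Crx, the photoreceptor homeobox factor, differed by -0.01 (limma adjusted p 0.97).

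Of 22 tested phototransduction genes outside the rule, 2 were higher in short-wave cones and 0 lower, beside the same 0.828% and 0.655% of all genes, and the median log2 difference was 0.10. Guca1a, the guanylate cyclase activator GCAP1, had 6923, 7218, 6363 and 6360 CPM, against 4833, 5214, 3595 and 4309 in medium-wave cones (log2 difference 0.59, SE 0.08, limma adjusted p 6.9e-04). Its neighbour Guca1b, which encodes GCAP2, had 186, 187, 198 and 126 against 117, 109, 109 and 88.2 (0.66, SE 0.09, limma adjusted p 0.0017). Short-wave values of both genes lay above medium-wave values throughout. Non-cone cells had 337, 366, 193 and 292 CPM of Guca1b, above short-wave cones in every library but bleached vehicle. Genes such as Cnga3, a cone channel subunit (-0.18, limma adjusted p 0.53), and Grk1, an opsin kinase (0.30, limma adjusted p 0.079), were not called. Of 23 outer segment and cilium genes, Impg2, a matrix proteoglycan (-0.39), and Rp1l1 (-0.37) were lower.

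In lists of general cell state, 0 of 13 mitochondrially encoded genes, 0 of 43 nuclear oxidative phosphorylation genes, 0 of 20 glycolysis genes, 0 of 17 unfolded protein stress genes, 0 of 18 oxidative stress genes and 0 of 43 ribosomal protein genes passed the limma test at an adjusted p under 0.05. Over all genes 120 of 8095 passed it, so lists of this size hold few or no calls at the background share. At an unadjusted p under 0.05 there were 942 genes over the whole table. Among 9 cell death genes Gsdme, a pore-forming gasdermin, was lower (-0.66). Of 13 bipolar markers Cabp5, Scgn and Otx2 were higher and Car8 lower, with a median of 0.58, and of 12 Müller markers Rlbp1 was higher, with a median of 0.42. Those cell types' part in the differences between cone classes was not tested.

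Cones with a strong short-wave bias were then compared with mixed ones. Members with at least 10 opsin UMIs were split into 271 cells with an Opn1mw share under 10% and 415 cells with 10 to 50%, and the same limma fit over the 4 libraries was run on 5511 genes. Median depths were 4396, 5800.5, 6394 and 7392 UMIs in the strongly biased cells and 4540, 6139, 6869 and 7784 in the mixed cells. In strongly biased cells 14 genes were higher (0.254%) and 28 lower (0.508%), all with the same sign in the 4 libraries, which the fit favours. The split at 10% was chosen after the data were seen.

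Thrb stood first among these genes. It had 357, 298, 170.2 and 261 CPM in strongly biased cells, against 697, 612, 409 and 624 in mixed cells, a log2 difference of -1.10 (SE 0.09, limma adjusted p 6.1e-07). In each library the strongly biased cells were lowest. Medium-wave cones, at 665, 648, 322 and 439.9, lay above the strongly biased cells in all 4 libraries and below the mixed cells in 3 of 4, the exception being BC11-38.

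Pgc, the digestive proenzyme pepsinogen C, had 228, 199, 153 and 159 CPM in strongly biased cells, against 406, 439.9, 494 and 451 in mixed cells (-1.25, SE 0.12, limma adjusted p 4.9e-06). Rd3l, a relative of the guanylate cyclase regulator RD3, had 439, 486, 417 and 585 against 826, 749.8, 808 and 955 (-0.79, SE 0.08, limma adjusted p 1.1e-05). Hopx, an atypical homeodomain cofactor, had 166, 331, 102 and 244 against 303, 443, 216 and 432.5 (-0.76, SE 0.11, limma adjusted p 6.2e-04). Only Hopx overlapped between both sets of cells among these 3 genes. Samd7 was lower as well (-1.01, limma adjusted p 0.020), as were Gzmm, the protease granzyme M (-0.54), and Agr2, a disulfide isomerase (-0.82).

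Higher in strongly biased cells was Dnaic1, with 67.5, 92.0, 56.7 and 109.8 CPM, against 10.7, 28.9, 18.3 and 15.5 in mixed cells (1.69, SE 0.21, limma adjusted p 1.1e-04). Sgk1, a kinase of ion transport control, had 222, 173, 275 and 171 against 120.5, 85.5, 124 and 81.0 (0.96, SE 0.12, limma adjusted p 1.1e-04), and Glo1, the glyoxalase that clears methylglyoxal, 689, 747, 1058 and 839 against 479, 477, 735 and 557 (0.56, SE 0.07, limma adjusted p 2.2e-04). Dnaic1 and Sgk1 did not overlap between both sets of cells, while Glo1 did. Ccdc136 had 1729, 1441, 1432 and 1491 against 1488, 1167, 1100.4 and 1058 (0.35, limma adjusted p 0.0080), both far above medium-wave cones. En2 (0.45, limma adjusted p 0.42), Vax2 (0.55, limma adjusted p 0.52) and Rxrg (0.17, limma adjusted p 0.88) were not called.

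Glul and Apoe, both high in Müller glia, were also higher in strongly biased cells, by 1.49 and 1.57. Their levels there, 62.4 to 228 CPM for Glul and 105 to 508 for Apoe, were below 660.3 to 2278 and 2135 to 2841 in non-cone cells. The part of glial RNA in these calls was not tested.

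**Figure D4:**
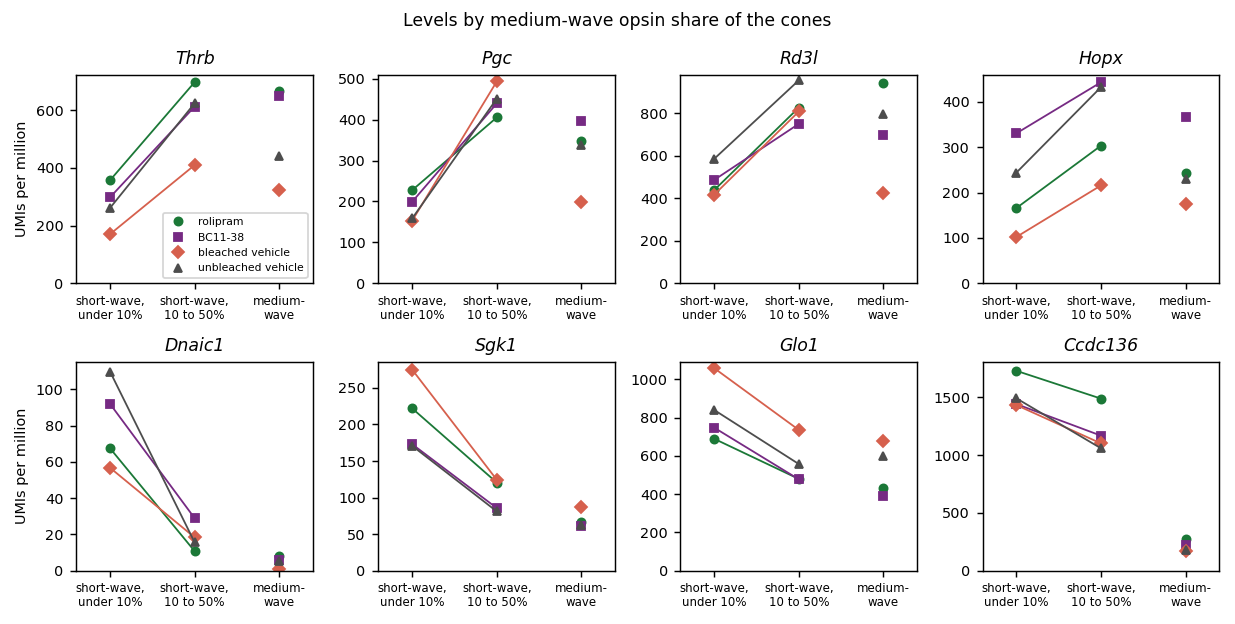
CPM (vertical axis) of 8 genes in short-wave cones with an Opn1mw share under 10%, short-wave cones with 10 to 50% and medium-wave cones, with 1 symbol per library and lines that join both sets of short-wave cones of a library. Thrb and Pgc are lowest in the cells under 10% in every library, and Dnaic1 is highest there.

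Short-wave cones were compared between libraries by the ratio of summed CPM with its exact 95% counting interval. A gene was past the fold when it differed at least 2-fold and the interval lay beyond 1.5-fold. No test was possible with 1 library per group, so library, mice, sex and treatment cannot be told apart. Named genes exclude those for which 1 cell held over 20% of the UMIs in the higher library and those not above non-cone cells. Both drug comparisons share the bleached vehicle library.

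In bleached against unbleached vehicle, 84 of 5762 genes were higher (1.46%) and 18 lower (0.312%), but once the exclusions for single cells and non-cone levels were applied 11 and 3 remained. Among members with at least 10 opsin UMIs, a setting added after the data were seen, 26 genes were higher and 11 lower, and without the 61 members with 4 or 5 cone genes 40 and 13. Of 9 counted Müller markers 8 were higher and of 5 horizontal markers 5. In bleached vehicle 1 cell held 69.6% of the UMIs of Sept4 and 1 cell 99% of those of Calb1. Without the 61 members, Vim alone of 4 counted Müller markers was higher, while the 5 horizontal markers stayed higher. The median log2 ratio of the Müller markers counted then fell from 3.21 to 0.46. Among lower genes were 2 of 2 counted ganglion cell markers, Sncg and Nefl, and 2 of 3 amacrine markers, Snhg11 and Calb2. Of their UMIs in unbleached vehicle, 1 cell held 95.5% for Sncg, 96.8% for Nefl, 67.3% for Snhg11 and 92.1% for Calb2. These 4 genes stayed lower with at least 6 cone genes and with at least 10 opsin UMIs. The part of such cells in the counts of 84 and 18 was not tested.

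Ptprn, a protein of dense-core secretory granules, had 249.3 CPM in bleached vehicle against 82.2 in unbleached vehicle, a ratio of 3.03 (2.37 to 3.92). Rbm17, a splicing factor, had 226.5 against 84.9 (2.67, 2.08 to 3.45). In rolipram and BC11-38 short-wave cones Ptprn had 61.4 and 60.1 and Rbm17 75.8 and 62.8. The bleached vehicle library was thus the highest of the 4 for both. In medium-wave cones the ratios of bleached to unbleached vehicle were 2.92 and 3.03. In cells with Y-linked and without Xist UMIs the short-wave ratios were 1.86 and 1.95, under 2-fold, and for Rbm17 the ratio in members with at least 10 opsin UMIs was 1.84.

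Btc, the growth factor betacellulin, had 78.9 CPM in bleached vehicle against 24.4 in unbleached vehicle (3.24, 2.05 to 5.26), while its ratio in medium-wave cones was 1.13 (0.810 to 1.58). The difference between both ratios was not tested. Plekha1, a phosphoinositide-binding adaptor, had 245 against 121 (2.02, 1.62 to 2.53), and 1.99 in medium-wave cones, but 1.53 in cells with Y-linked and without Xist UMIs. Btc was not past the fold in those cells either, at 2.51. The remaining named genes were Sec22c (3.32), Kremen1 (3.26), Eml3 (3.13), Spsb2 (3.03), Gm16062 (2.65) and Map3k1 (2.49). All 6 had under 100 UMIs over both libraries, and their intervals began between 1.54 and 1.97.

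Hopx had 125 CPM in bleached vehicle against 321 in unbleached vehicle, 2.58-fold lower (2.07 to 3.23), and 174 against 229.7 in medium-wave cones. Hspa5, the endoplasmic reticulum chaperone BiP, had 237 against 546, 2.31-fold lower (1.97 to 2.72). Gm42697 had 50.3 against 121, 2.4-fold lower (1.70 to 3.46). Of 15 counted unfolded protein stress genes Hspa5 and Sdf2l1, a chaperone cofactor, were lower, with 10.3 against 38.8 for Sdf2l1 (3.77-fold lower, 1.81 to 8.80), and the median log2 ratio was -0.29 against 0.07 over all genes. In cells with Y-linked and without Xist UMIs the ratio of Hspa5 was 0.655, of Hopx 0.538 and of Gm42697 0.62, none past the fold.

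The 13 mitochondrially encoded genes had a median log2 ratio of -0.47, with 0 past the fold. mt-Nd6 had the lowest ratio, 0.63, and mt-Nd1 the highest, 0.93. mt-Co1 had 10441 CPM in bleached vehicle against 14642 in unbleached vehicle. For the 43 oxidative phosphorylation genes of the nucleus the median was 0.01. The 22 phototransduction genes outside the rule had a median of -0.07 and the 22 counted opsin choice genes -0.04, with 0 past the fold in either list.

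Junb, an immediate early transcription factor, had 533 CPM in bleached vehicle against 293.5 in unbleached vehicle (1.82, 1.57 to 2.10), short of the fold. Socs3, an inhibitor of cytokine signalling, had 164 against 68.6 (2.38, 1.79 to 3.19), and no cell held more than 6.29% of its UMIs. Non-cone cells, at 1508 and 1028 for Junb and 223 and 116 for Socs3, were above both. Of 10 counted injury genes 8 were higher and 1 lower, beside 1.46% and 0.312% of all genes, but among members with at least 10 opsin UMIs Socs3 alone of 3 counted was higher. Of 14 immediate early genes 3 were higher, and among those members 0 of 10, where 26 of all 4810 genes were higher.

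In rolipram against bleached vehicle, 18 of 5857 genes were higher (0.307%) and 89 lower (1.52%), and 6 and 16 remained after the exclusions. Without the 61 members with 4 or 5 cone genes, 14 were higher and 54 lower. Thrb had 534 CPM in rolipram against 234.5 in bleached vehicle, a ratio of 2.28 (1.94 to 2.68), and was past the fold under all 10 alternatives. Unbleached vehicle stood at 432.5. Gzmm had 517 against 232 (2.23, 1.90 to 2.63) and Adrb1, the beta-1 adrenergic receptor, 646 against 318 (2.03, 1.77 to 2.34), a gene past the fold in 5 of 10 alternatives. Among members with at least 10 opsin UMIs the ratios of Gzmm and Adrb1 were 1.82 and 1.72. In medium-wave cones the ratios of Thrb, Gzmm and Adrb1 were 2.06, 3.56 and 3.69. Smug1 (2.68), Ccdc30 (2.52) and Cdc42ep3, a binder of the CDC42 GTPase (2.27), were the other higher genes.

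Lower in rolipram was Gm8797, with 80.4 CPM against 360.3 in bleached vehicle (4.48-fold lower, 3.53 to 5.74), and non-cone cells differed likewise, with 63.4 against 294. Ptprn was 4.06-fold lower (3.08 to 5.41) and Rbm17 2.99-fold lower (2.30 to 3.90), though Rbm17 was not past the fold among members with at least 10 opsin UMIs, at a ratio of 0.553. Cd47, a membrane protein that restrains phagocytosis, had 153 against 357 (2.34-fold lower, 1.93 to 2.84), but was under 2-fold without the cells of highest doublet score, at a ratio of 0.515. Spsb2, with 2 UMIs in rolipram and 55 in bleached vehicle, had a ratio of 0.029 (0.0034 to 0.109). Gm16062 (7.28), R3hcc1l (3.58), Vps13c, a lipid transfer protein (3.12), Antxr2 (2.81) and Prtg (2.4) were lower by the folds given.

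Junb had 172 CPM in rolipram against 533 in bleached vehicle (3.09-fold lower, 2.61 to 3.68). H2-D1, a class I antigen-presenting molecule, had 46.9 against 110 (2.34-fold lower, 1.65 to 3.34). Per3, a circadian clock gene, had 159 against 66.3 (2.4, 1.77 to 3.28), and 188 against 105 in non-cone cells. The 13 counted clock genes had a median log2 ratio of 0.38, with Per3 alone past the fold, and time of collection is not given in the labels. The 22 phototransduction genes had a median of 0.21, with 0 past the fold.

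In BC11-38 against bleached vehicle, 12 of 6262 genes were higher (0.192%) and 129 lower (2.06%), and 7 and 25 remained after the exclusions. Without the 61 members with 4 or 5 cone genes, 16 were higher and 71 lower. Hopx had 377 CPM in BC11-38 against 125 in bleached vehicle, a ratio of 3.03 (2.46 to 3.75), past the fold under all 10 alternatives. Gzmm had 598 against 232 (2.57, 2.21 to 3.01). Ip6k2, an inositol hexakisphosphate kinase, had 381 against 157 (2.43, 2.02 to 2.96), and non-cone cells had 149 against 66.7. Thrb had 474 against 234.5 (2.02, 1.73 to 2.37) and fell under the fold in 5 of 10 alternatives, at 1.84 among members with at least 10 opsin UMIs. Gm9752 (3.58), Smug1 (2.75) and Gm42697 (2.39) were the other higher genes.

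Lower in BC11-38 was Agtpbp1, a deglutamylase whose loss in mice ends in photoreceptor degeneration, with 171 CPM against 416 in bleached vehicle (2.43-fold lower, 2.06 to 2.87). Ptprn was 4.15-fold lower (3.23 to 5.38), Rbm17 3.61-fold lower (2.80 to 4.67) and Plekha1 2.49-fold lower (2.01 to 3.10), with Plekha1 at a ratio of 0.525 among members with at least 10 opsin UMIs. Spsb2 had 8.19 against 62.9 (7.68-fold lower, 4.06 to 15.8). For each of these 5 genes bleached vehicle was the highest library. Sox30 (5.59), Gm16062 (5.51), Gm49980 (3.47), Sec22c (3.41) and Mindy2 (2.73) were lower by the folds given.

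Junb had 227 CPM in BC11-38 against 533 in bleached vehicle (2.35-fold lower, 2.04 to 2.72), Socs3 56.6 against 164 (2.89-fold lower, 2.19 to 3.83) and H2-D1 49.1 against 109.8 (2.23-fold lower, 1.63 to 3.08). Per3 had 143 against 66.3 (2.15, 1.60 to 2.93). The 13 mitochondrially encoded genes had a median log2 ratio of 0.47 against -0.08 over all genes, with 0 past the fold, and mt-Co1 had 17422 against 10441 (1.67, 1.63 to 1.71).

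Of the Müller markers counted, 8 of 10 were lower in rolipram and 8 of 11 in BC11-38 than in bleached vehicle, beside 1.52% and 2.06% of all genes. The medians of those still counted in members with at least 10 opsin UMIs were positive, at 0.29 and 1.10. In rolipram only 4 were still counted, of which Apoe was higher and Vim lower. Of 5 horizontal markers 5 were lower in each. Injury genes were lower for 6 of 9 counted in rolipram and 8 of 12 in BC11-38, beside the same shares of all genes. Among members with at least 10 opsin UMIs they were lower for 1 of 3 and 1 of 4. In rolipram the 1 was Socs3, which was not among the 6. The part of Müller and horizontal cell RNA in the counts of lower genes was not tested.

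**Figure D5:**
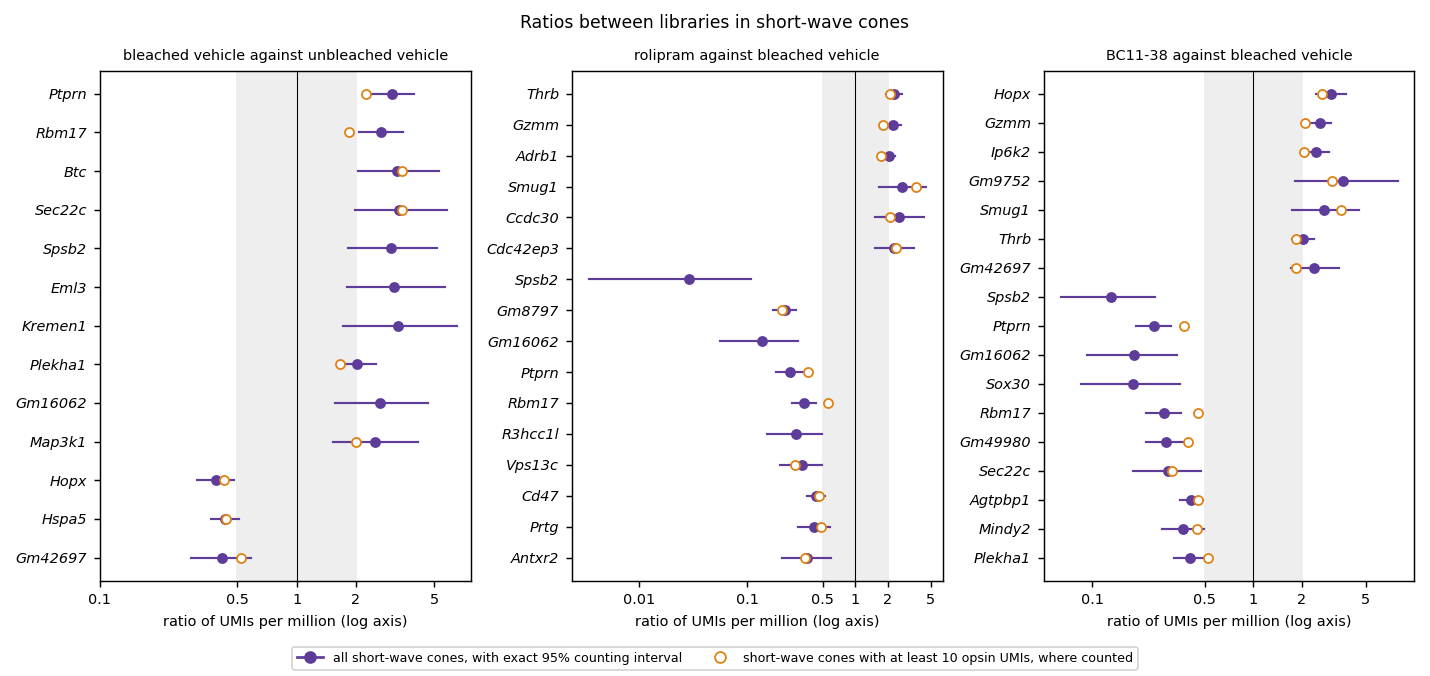
Ratios of CPM in short-wave cones (log axis) for named genes in each comparison between libraries, with exact 95% counting intervals as bars, open orange circles for members with at least 10 opsin UMIs where counted, and grey for ratios within 2-fold. Ptprn lies above 2 in bleached against unbleached vehicle and below 0.5 in both comparisons of a drug with bleached vehicle, which share the bleached vehicle library.

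Thrb, Gzmm and Hopx were lower in cells with an Opn1mw share under 10%, and such cells made up a different part of each library: 79 of 226 members with at least 10 opsin UMIs in rolipram, 82 of 231 in BC11-38, 52 of 95 in bleached vehicle and 58 of 134 in unbleached vehicle. They were most common in bleached vehicle, where the level of Opn1mw, which sets the share, was lowest as well. The mix of cells thus differed between libraries, and its part in the ratios of these 3 genes was not tested. Among cells under 10%, Gzmm had 405 CPM in rolipram, 543 in BC11-38 and 232.5 in bleached vehicle, and among cells with 10 to 50% it had 640.4, 685 and 402. Thrb had 357, 298 and 170.2 under 10%, and 697, 612 and 409 from 10 to 50%. Hopx had 331 under 10% in BC11-38 against 102 in bleached vehicle, and 443 against 216 from 10 to 50%. Within each range of shares bleached vehicle was the lowest of the libraries named. Gzmm in rolipram and Thrb in BC11-38 were less than 2-fold above it in both ranges. From 10 to 50%, Thrb in rolipram and Gzmm in BC11-38 were less than 2-fold above it too.

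The drugs' targets were scarce in short-wave cones. Pde11a had 0 UMIs in each of the 4 libraries, which allows levels of up to 2.71, 2.05, 3.43 and 2.71 CPM. Pde4a, a target of rolipram, had 14.4, 8.87, 10.3 and 10.8 CPM in short-wave cones, against 38.4, 37.8, 18.2 and 36.0 in non-cone cells, and Pde4b 9.93, 10.9, 13.7 and 7.22 against 77.1, 83, 45.6 and 73.5. Transcripts of the genes knocked out were still counted: Abca4 had 73.1, 84.6, 67.5 and 60.5 and Rdh8 4.51, 0.682, 1.14 and 0.903 in short-wave cones. With every group carrying both deletions, and a 3' count that need not cover the deleted part, these levels check no label.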

How the data were processed

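Retinal cells were measured by 10x Chromium v3 single-cell RNA-seq, 1 library per group. Per the file headers, the authors deposited each value as a natural log, taken after scaling a cell to 10000 UMIs and adding 1. Cell Ranger 6.0.1, Seurat 3.2.2 and mm10 are named without roles, per the submitters' processing notes. Filters, strand use and the handling of shared reads: not given in the sources used here. A further group in the series text was not analysed here.

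Back-transformed values were whole multiples of 1 UMI in every cell (100% within 0.05), so 140410160 UMIs over 20094 genes were recovered. As the deposited unit is a natural log, limma 3.58.1 (R 4.3.3) on log2(CPM + 10) was used. Short-wave and medium-wave cones gave 8 sums, fitted with the library as a block for genes with at least 100 UMIs, with Benjamini-Hochberg adjustment. Because the rule's 13 genes chose the cells, these, Xist, Tsix and Y-linked genes were left out. Library comparisons used genes with at least 50 UMIs and exact intervals. Named genes were the 12 largest per direction between classes and up to 10 per direction between libraries whose interval lay farthest from 1. A limit for 0 UMIs is 3 counts. Scrublet (scanpy 1.11.5) called 18, 0, 2 and 1 doublets in the rolipram, BC11-38, bleached vehicle and unbleached vehicle libraries against 499, 302, 371 and 260 expected, so it had not worked. None was removed, and an alternative left out the highest scores. Members and gene lists were chosen with earlier results of these data known. The fits were tested on simulated data. Sequences are from RefSeq GRCm38.p6, and gene positions and gaps between genes from GENCODE.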

Additional observations from a re-analysis of the deposited data

How the results depend on the processing

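With 1 library per group, p-values exist only for cone classes within libraries, and between libraries depth, mice, sex and treatment cannot be told apart. Genes under 50 UMIs over 2 libraries were not compared. The share of short-wave cones among opsin cones was 40.0%, 43.6%, 36.7% and 39.2% in rolipram, BC11-38, bleached vehicle and unbleached vehicle at an Opn1mw share under 0.2. Against 120 called genes between cone classes, 44 were called after thinning to 2000 UMIs, 27 without the library block, 211 for shares under 0.2 against 0.8 or above, 185 with voom weights and 203 without the highest doublet scores. Leaving out 1 library gave 43 to 230, with 230 without BC11-38, 109 without bleached vehicle, 60 without rolipram and 43 without unbleached vehicle. The other alternatives gave 82 to 152, and of 348 values of named genes 337 kept their call. The calls of Scgn, D430019H16Rik, Osbpl3, Itga4, Kpna2 and Slc35g1 were lost in 11. The cause was not tested.

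Against 102 genes past the fold in bleached against unbleached vehicle, 45 were at 100 UMIs or more, 219 at 20 or more, 181 by 2-fold alone, 52 in cells with Y-linked and without Xist UMIs, 53 with at least 6 cone genes and 37 with at least 10 opsin UMIs. For rolipram (107) these were 56, 215 and 180, then 68 with at least 6 cone genes and 46 with at least 10 opsin UMIs. For BC11-38 (141) they were 67, 281, 230, 89, 87 and 55. The median log2 ratio of the Müller markers counted reversed in rolipram to 0.29 with at least 10 opsin UMIs, where 4 were counted instead of 10. In BC11-38 it reversed to 1.04 with at least 6 cone genes and 1.10 with at least 10 opsin UMIs. Cells with at least 10 opsin UMIs, and the split within short-wave cones, were chosen after the data were seen. No paired analysis was possible between groups because each has 1 replicate.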
